A study of Rattus norvegicus with 12 samples.

Results

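The miR-15, miR-16, miR-195 and miR-497 miRNAs share one seed, the bases that pair with target messages, and come from separate hairpin clusters. Every row of the deposited rat tables named miR-15a, miR-15b, miR-16, miR-195 or miR-497, from either arm of the hairpin, was taken, which gave 9 of 649 miRNA rows. These were the 5p arms of all 5 miRNAs and the 3p arms of miR-15b, miR-16, miR-195 and miR-497. The study sequenced small RNA of rat gastric mucosa, with 4 libraries in each of 3 groups. Normal rats had no treatment. Model rats had chronic atrophic gastritis, in which stomach glands are lost, from 24 weeks of the mutagen N-methyl-N'-nitro-N-nitrosoguanidine (MNNG) in the drinking water at 180 µg/ml, with 2% sodium salicylate by gavage (1 ml per 100 g) and cycles of 2 fed days and 1 fasted day. XLHZ rats had the same exposure and were also given Xianglianhuazhuo formula, a herbal preparation, for 60 days. The sources used here do not give strain, age or sex. They also do not say whether each library was from its own rat, and p-values therefore reflect only how the libraries vary.

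A miRNA hairpin is cut into 2 arms, and the arm that enters the silencing complex is the guide strand, here the 5p arm. Guides with this seed repress cyclins and cyclin-dependent kinases that move a cell from G1 into S phase, and the survival protein BCL2, and they are known as brakes on proliferation. miR-15b and miR-16 lie inside the Smc4 gene of chromosome condensation, miR-15a lies in another cluster with its own copy of miR-16, and miR-497 and miR-195 form another cluster known for cell cycle exit in muscle.

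The guide strands are shown because their common seed is what joins the family and their later bases tell the members apart. Sequences are from RefSeq with assembly GRCr8 and were matched by name for 8 of the 9 rows. The row without an entry was miR-15a-5p, so its seed could not be read here. Capitals mark the seed at bases 2 to 8.
miR-15b-5p: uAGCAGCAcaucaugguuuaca
miR-16-5p: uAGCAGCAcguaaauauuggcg
miR-195-5p: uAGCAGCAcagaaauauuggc
miR-497-5p: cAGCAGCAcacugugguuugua
miR-322-5p: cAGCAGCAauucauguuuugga
miR-503-5p: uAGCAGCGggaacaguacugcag

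The first 4 are members, and the last 2 are relatives from the X chromosome that the choice of rows did not include. The seed AGCAGCA stood at bases 2 to 8 of 5 of the 693 mature miRNAs in the RefSeq table (0.722%), namely the 4 members shown and miR-322-5p. miR-503-5p carried AGCAGCG. Counted from base 1 without gaps, miR-16-5p and miR-195-5p had 19 of 21 bases in common although they come from different clusters. Cluster partners were less alike: miR-15b-5p and miR-16-5p matched at 14 of 22 bases, and miR-195-5p and miR-497-5p at 12 of 21. In GRCr8, miR-15b-5p (chr2:155555197-155555218) and miR-16-5p (chr2:155555343-155555364) start 146 bases apart on the + strand, and miR-497-5p (chr10:55450172-55450193) and miR-195-5p (chr10:55450509-55450529) start 337 bases apart on the + strand. Mature miR-16-5p from either of its clusters would be counted in the same row. The sources used here do not say whether counting allowed mismatches between such similar sequences as miR-16-5p and miR-195-5p.

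The libraries held 9094962 to 11556058 counts in the joined table. Levels are counts scaled to a common library total (CPM), with TMM factors so that most miRNAs lie level between libraries, and differences are log2 fold changes from edgeR. Epithelial marker miRNAs, the miR-200 family with miR-375, were detected in all libraries of the labelled mucosa and summed to between 68498 and 100581 CPM. Smooth muscle markers (miR-143 and miR-145, both arms) ranged from 128350 to 223292 CPM in normal, 145372 to 412567 in model and 96355 to 274924 in XLHZ libraries. Model libraries 2 and 3 stood apart, with miR-143-3p at 29.2% and 25.1% of all counts against 9.39% to 23% in the other 10 libraries.

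miR-16-5p was by far the most abundant member. It ranked 8 among 648 miRNAs, with 31927, 31120, 34559 and 32589 CPM in normal libraries 1 to 4, 32196, 29184, 40966 and 30584 CPM in model libraries and 31118, 31176, 36337 and 32731 CPM in XLHZ libraries. All 3 groups overlapped, and model library 3 was the highest of the 12. Group means were 32549 ± 1469, 33232 ± 5300 and 32841 ± 2448 CPM (mean ± SD, n = 4, here and below).

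miR-15b-5p, made from the same cluster as miR-16-5p, stood at 1020, 702, 1559 and 1193 CPM in normal libraries, 1286, 856, 1517 and 1379 CPM in model libraries and 1367, 1249, 1134 and 1288 CPM in XLHZ libraries. Normal library 2 and model library 2 were the lowest 2 of the 12, and the XLHZ libraries lay inside the range of the other groups. The coefficient of variation was 31.9% in normal, 22.6% in model and 7.72% in XLHZ libraries, against 4.51%, 15.9% and 7.45% for miR-16-5p. miR-15a-5p was scarce at 12.3, 9.25, 16.6 and 14.7 CPM in normal, 14.7, 11.6, 16.2 and 15.5 CPM in model and 19.5, 17.9, 17.8 and 16.5 CPM in XLHZ libraries, from 104 to 204 counts each. The 4 XLHZ libraries were above all 4 model libraries, and 1 normal library, number 3, reached into their range.

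The guide rno-miR-195-5p, which restrains cyclins and CHEK1, had 2242, 1850, 2422 and 2005 CPM in normal libraries, 2057, 2580, 2938 and 1950 CPM in model libraries and 1645, 2086, 1990 and 1718 CPM in XLHZ libraries. Its highest 2 values were those of model libraries 2 and 3, the libraries with the most miR-143-3p, and its lowest 2 were XLHZ libraries 1 and 4. Among normal libraries, those with miR-143-3p shares of 14.6% (number 3) and 17.9% (number 2) had the highest and the lowest miR-195-5p. miR-497-5p, its cluster partner, had 1753, 1497, 1991 and 1311 CPM in normal, 1401, 1771, 2475 and 1663 CPM in model and 1293, 1618, 1727 and 1403 CPM in XLHZ libraries. Its highest value was again model library 3, and its groups overlapped throughout. In bulk tissue, fewer cells of a type and less RNA per cell cannot be told apart.

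The 3p arms, which are mostly discarded when the guide enters the silencing complex, were far below their 5p partners. miR-15b-3p measured 51.6 ± 8.89, 59.1 ± 13.9 and 53.1 ± 3.25 CPM in normal, model and XLHZ libraries, and miR-195-3p 22.0 ± 2.22, 22.5 ± 5.68 and 18 ± 2.43 CPM. miR-497-3p measured 5.65 ± 1.78, 6.06 ± 2.54 and 4.87 ± 2.30 CPM, from 23 to 110 counts per library. miR-16-3p had between 0 and 10 counts and was not tested in any comparison, and the 0 in normal library 1 allows up to 0.305 CPM (3 counts). That limit covers counting error only.

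**Figure D1:**
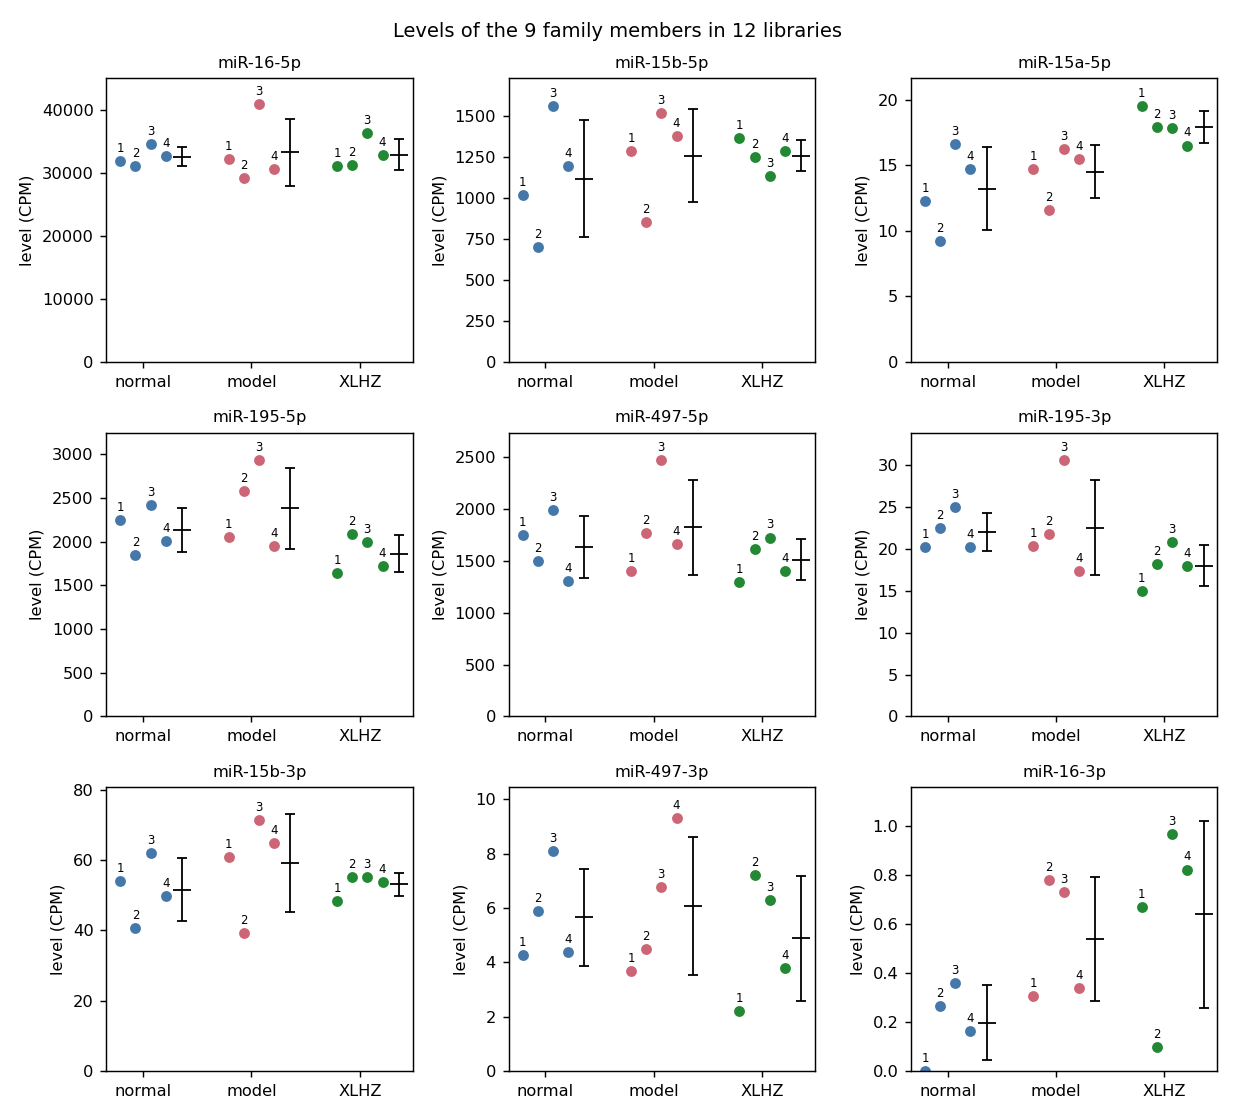
Level of each of the 9 family members (CPM after TMM scaling, linear axes from 0) in the 12 libraries, with library numbers above the points and the mean ± SD of each group of 4 beside them. Ranges of the groups overlap in each panel except that the XLHZ libraries of miR-15a-5p (16.5 to 19.5 CPM) lie above the model libraries (11.6 to 16.2 CPM).

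Ratios of 2 counts within a library do not depend on the scaling. The 5p to 3p ratio was 21.3 ± 3.84, 21.3 ± 0.297 and 23.8 ± 3.26 for miR-15b in normal, model and XLHZ libraries, and 97.1 ± 11.5, 107 ± 10.2 and 104 ± 10.1 for miR-195. For miR-497 it was 303 ± 75.6, 331 ± 102 and 365 ± 161. The group ranges overlapped for each of these hairpins.

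Within clusters, the ratio of miR-195-5p to miR-497-5p was 1.31 ± 0.145 in normal, 1.32 ± 0.164 in model and 1.23 ± 0.0613 in XLHZ libraries. miR-16-5p exceeded miR-15b-5p by 31.3 ± 9.47, 27.1 ± 5.08 and 26.3 ± 4.01 times. The single-library values of that second ratio ran from 22.2 to 44.3. Between clusters, the ratio of miR-16-5p to miR-195-5p was 14.2, 16.8, 14.3 and 16.3 in normal libraries, 15.6, 11.3, 13.9 and 15.7 in model libraries and 18.9, 14.9, 18.3 and 19.1 in XLHZ libraries. XLHZ libraries 1, 3 and 4 held the highest 3 values of the 12, and XLHZ library 2, with the highest miR-143-3p share of its group (23%), lay among the normal and model libraries. The ratio of miR-15b-5p to miR-15a-5p, also from different clusters, was 83.4 ± 7.54, 86.1 ± 8.66 and 70.5 ± 6.01, with overlapping ranges. Relative to the mean, its SD was smaller than that of miR-195-5p to miR-497-5p in normal and model libraries, and larger in XLHZ libraries.

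**Figure D2:**
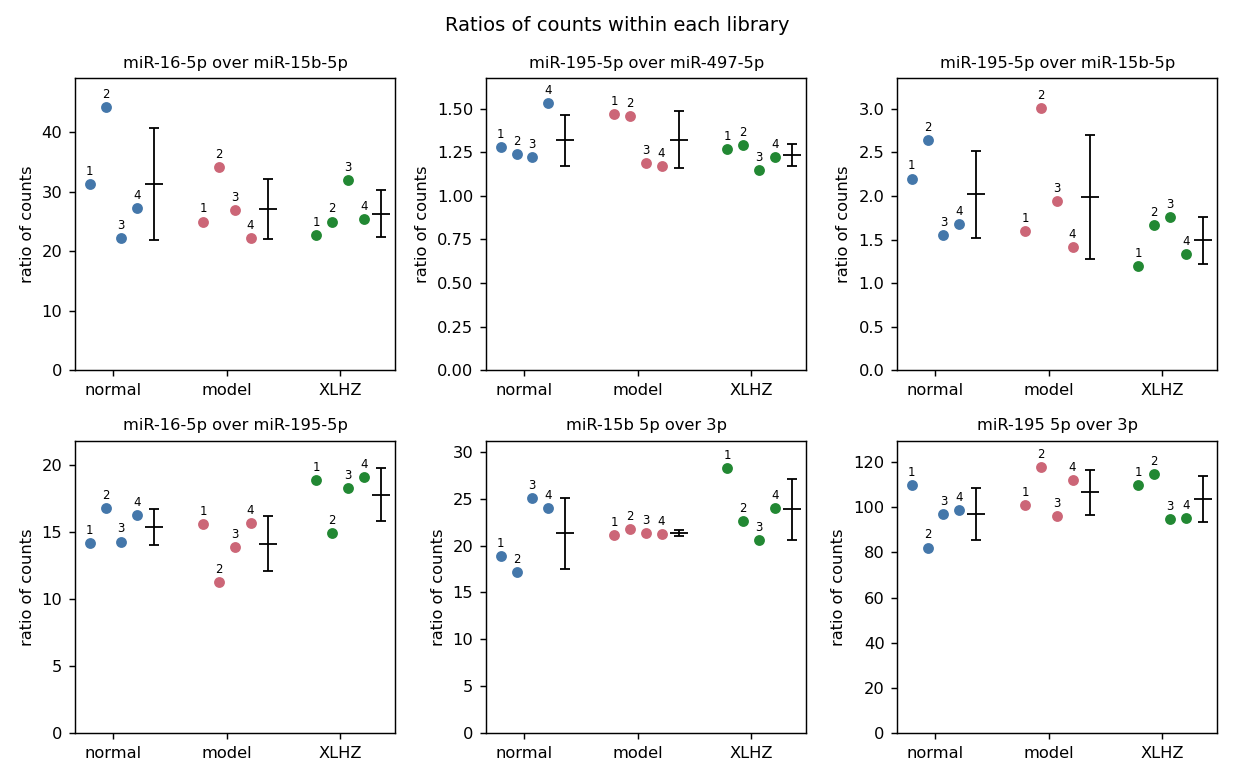
Ratios of raw counts of 2 family members within each library (linear axes from 0), with library numbers above the points and the mean ± SD of each group of 4. The ratio of miR-195-5p to miR-497-5p stays between 1.15 and 1.53 in all 12 libraries. Between clusters, that of miR-195-5p to miR-15b-5p runs from 1.20 to 3.01 and that of miR-16-5p to miR-195-5p from 11.3 to 19.1.

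Likeness was measured as the mean absolute difference of log2 levels over the 12 libraries after each miRNA was centred on its own mean. A smaller value means closer levels after centring. The measure is not scaled by spread, so a variable miRNA lies far from a flat one even where both move together. miR-195-5p and miR-497-5p differed by 0.105, and 1 of 275 miRNAs outside the family with a mean above 10 CPM, miR-23a-3p (0.090), was closer to miR-195-5p. The next were miR-374-5p (0.118) and miR-28-5p (0.120), level with miR-195-3p (0.120). Both arms of miR-195 were closer to miR-497-5p, at 0.105 and 0.132, than any of the 275, of which miR-27a-3p (0.133), miR-130a-3p (0.136) and let-7a-1-3p (0.148) came next. The median over the 275 was 0.315 for miR-195-5p and 0.329 for miR-497-5p. The 2 guides of the other cluster were farther apart: miR-15b-5p differed from miR-16-5p by 0.229, with 121 of the 275 closer and a median of 0.249. miR-15b-5p had the larger coefficient of variation in each group, and this distance does not separate spread from pattern. The other arm, miR-15b-3p, was nearer to miR-16-5p, at 0.153 with 42 of the 275 closer. So were miR-195-3p (0.154), miR-195-5p (0.160), miR-497-5p (0.183) and miR-15a-5p (0.205), with 43, 48, 68 and 93 of the 275 closer. Nearest to miR-16-5p were miR-199a-3p (0.066), miR-27a-3p (0.082) and miR-3586-3p (0.087). These distances describe 12 libraries that share the same scaling and carry no test.

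The 9 members together took 3.87 ± 0.398% of all counts in normal, 3.61 ± 0.554% in model and 3.93 ± 0.311% in XLHZ libraries. Model library 2 had the lowest share, 2.82% (95% Wilson interval 2.81% to 2.83%), and normal library 3 the highest, 4.27% (4.26% to 4.29%). These intervals cover counting error only. miR-16-5p made up 86.8 ± 1.46%, 85.7 ± 0.949% and 87.4 ± 0.910% of the family's counts. Such shares are not scaled, so a library in which miR-143-3p takes more counts leaves fewer for all other miRNAs.

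**Figure D3:**
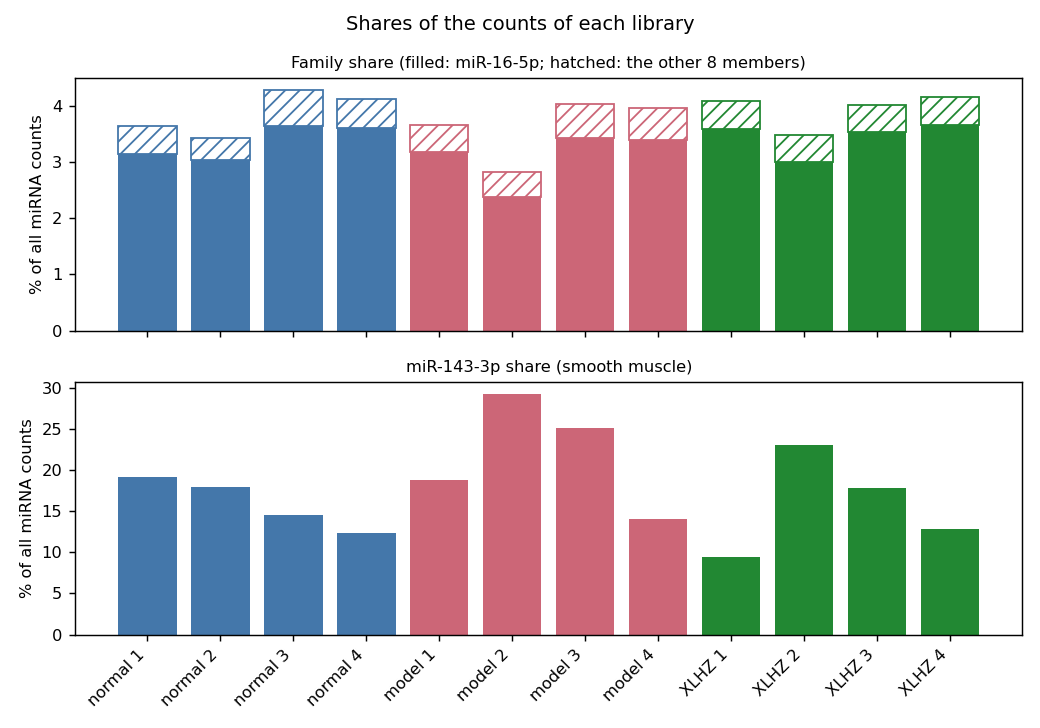
Share of all miRNA counts (percent, linear axes from 0) taken by the family and by miR-143-3p in each of the 12 libraries, with miR-16-5p filled and the other 8 members hatched. Model library 2 has the lowest family share (2.82%) and the highest miR-143-3p share (29.2%).

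The first comparison asked whether atrophic mucosa differed from normal mucosa. No member passed in either direction: of the 9 members 8 were tested, and 0 had an adjusted p under 0.05 (edgeR quasi-likelihood test, Benjamini-Hochberg over 403 miRNAs), against 1 of all miRNAs tested (0.248%). At an unadjusted p under 0.05 there were 0 members against 7.2% of all miRNAs, and DESeq2 also called 0 members against 1.74% of all. No member's groups were apart, where 1.74% of all miRNAs were higher and 2.23% lower without overlap. The 8 tested members had a median log2 fold change of 0.13, beside -0.0072 over all miRNAs tested. All 8 values were above 0 with TMM factors, as were 198 of the 403 miRNAs tested. The 8 include both arms of miR-15b, miR-195 and miR-497, so they are not separate hairpins. On library totals, where the median of all miRNAs was -0.12, the values of miR-15a-5p, miR-16-5p, miR-195-3p and miR-195-5p were below 0.

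The interval was narrowest for miR-16-5p, whose value was 0.019 (SE 0.13, edgeR adjusted p = 0.97), with a 95% interval of -0.27 to 0.31 on the log2 scale, or 0.83 to 1.24 times the normal level. miR-195-5p had 0.15 (SE 0.18, adjusted p = 0.826, edgeR) with an interval of 0.84 to 1.46 times, and miR-497-5p 0.15 with 0.80 to 1.54 times. miR-15b-5p had 0.16 with 0.73 to 1.70 times and miR-15a-5p 0.12 with 0.75 to 1.57 times. Of the 3p arms, the log2 fold changes were 0.19 for miR-15b-3p, 0.021 for miR-195-3p and 0.10 for miR-497-3p. Beside these values, the 4 smooth muscle arms had a median of 0.62 (4 of 4 positive) and 4 tested neuronal miRNAs one of 0.69 (4 of 4 positive). The 7 tested striated muscle miRNAs had a median of 0.90, with 6 positive and miR-499-5p at -0.28. None of these passed, and the part of muscle and nerve RNA in the family's values was not tested. The other marker lists had medians of 0.14 (erythroid), -0.063 (epithelium), -0.087 (endothelium), -0.093 (fibroblast) and -0.15 (leukocyte), and none of their miRNAs passed. Model libraries 2 and 3 held the highest miR-195-5p and miR-497-5p levels of their group, so leaving them out lowers both values. Without them, on model libraries 1 and 4, the log2 fold changes were -0.074 for miR-195-5p and -0.075 for miR-497-5p. Those of miR-15b-5p and miR-15b-3p were 0.27 and 0.30. The lowest adjusted p of the 4 was then 0.759 (edgeR).

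The second comparison asked whether exposed mucosa differed with and without the formula. It uses the same 4 model libraries as the first, so the values of both comparisons are not independent. Again 0 of 8 tested members passed (edgeR, adjusted over 401 miRNAs), against 0.249% of all miRNAs. At an unadjusted p under 0.05 there were 0 members against 4.24% of all, and DESeq2 called 0 members against 0.249%. The median over the 8 members was -0.23, beside 0.0069 over all. Below 0 were 7 of the 8 members and 196 of the 401 miRNAs tested. All 3 arms of the miR-195 and miR-497 cluster with a mean above 10 CPM had values below 0: miR-195-5p at -0.37 (SE 0.17, unadjusted p = 0.0595, adjusted p = 0.725, edgeR), miR-195-3p at -0.33 (SE 0.22) and miR-497-5p at -0.29 (SE 0.20). The 95% interval of miR-195-5p was 0.59 to 1.01 times the model level, and that of miR-497-5p 0.60 to 1.12 times.

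miR-16-5p had a log2 fold change of -0.03 with an interval of 0.80 to 1.20 times and miR-15b-5p -0.012 with 0.73 to 1.35 times, and both signs turned on library totals (0.15 for each). miR-15b-3p had -0.17 and miR-497-3p -0.33. The scarce miR-15a-5p was the 1 member with a positive value, 0.29 (SE 0.18, adjusted p = 0.725, edgeR), with an interval of 0.93 to 1.62 times. It was also the 1 member of 8 whose groups did not overlap, where 0.998% of all miRNAs were higher in this way and 0.249% lower. The gap was 16.2 to 16.5 CPM, and on library totals the ranges met, with 17.2 CPM in model library 4 and 17.1 in XLHZ library 2. The 4 smooth muscle arms had a median of -0.67 (4 of 4 negative) and the neuronal miRNAs one of -0.81 (4 of 4 negative). The striated muscle miRNAs had one of -0.90, with 6 of 7 negative and miR-499-5p at 0.27. None of these passed. Above 0 were the medians of 4 tested erythroid miRNAs (0.69, 4 of 4 positive), 5 leukocyte miRNAs (0.21, 5 of 5 positive), the epithelium list (0.16) and the endothelium list (0.087), again with none past the test, and the fibroblast list had -0.07. Summed erythroid levels were 34.5 to 133 CPM in model and 91.9 to 204 CPM in XLHZ libraries, and the part of blood RNA in the value of miR-15a-5p was not tested. Leaving out model libraries 2 and 3 left only libraries 1 and 4 in that group. The value of miR-195-5p was then -0.14, that of miR-497-5p -0.056 and that of miR-195-3p -0.10 (adjusted p = 0.986 for each, edgeR). Libraries 2 and 3 held the highest miR-195-5p and miR-497-5p levels of the group, so their removal moves both values up.

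The third comparison set exposed and formula-treated mucosa beside normal mucosa. It shares libraries with both others. Here 0 of 8 tested members passed (edgeR, adjusted over 401 miRNAs), against 1.5% of all miRNAs. At an unadjusted p under 0.05 there were 0 members against 8.73% of all, and DESeq2 called 0 members against 1.75%. No member's groups were apart, where 3.24% of all miRNAs were higher and 2.49% lower without overlap. The median over the members was -0.083, beside -0.004 over all. miR-16-5p had the tightest interval of the family in any comparison: on the log2 scale the difference was -0.019 (SE 0.066, edgeR adjusted p = 0.962), or 0.89 to 1.09 times the normal level, and turned to 0.036 on library totals.

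miR-15a-5p was highest, at 0.40 (SE 0.20, unadjusted p = 0.0707, adjusted p = 0.567, edgeR), with an interval of 0.97 to 1.80 times. Lowest in value were miR-195-3p at -0.32 (SE 0.15, unadjusted p = 0.058, adjusted p = 0.567, edgeR) and the scarce miR-497-3p at -0.25 (SE 0.37). miR-195-5p had -0.23 with an interval of 0.72 to 1.02 times and miR-497-5p -0.15 with 0.73 to 1.12 times. miR-15b-5p had 0.14 and miR-15b-3p 0.013. The smooth muscle arms had a median of -0.058 in this comparison and the striated muscle miRNAs one of -0.017. The erythroid list had a median of 0.74 with 3 of 4 positive. Of the 4, 1 rose, miR-144-5p at 1.89 (SE 0.32, adjusted p = 0.0136, edgeR), from 7.23 ± 1.90 to 27.5 ± 11.6 CPM. The negative value was that of miR-144-3p, the other arm of this hairpin, at -0.18 (SE 0.78, adjusted p = 0.977, edgeR). Summed erythroid levels were 44.7 to 162 CPM in normal and 91.9 to 204 CPM in XLHZ libraries, and here too their part in the miR-15a-5p value was not tested. The remaining lists lay between -0.16 (fibroblast) and 0.0069 (epithelium), with neurons at -0.11, leukocytes at -0.037 and endothelium at -0.0088.

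**Figure D4:**
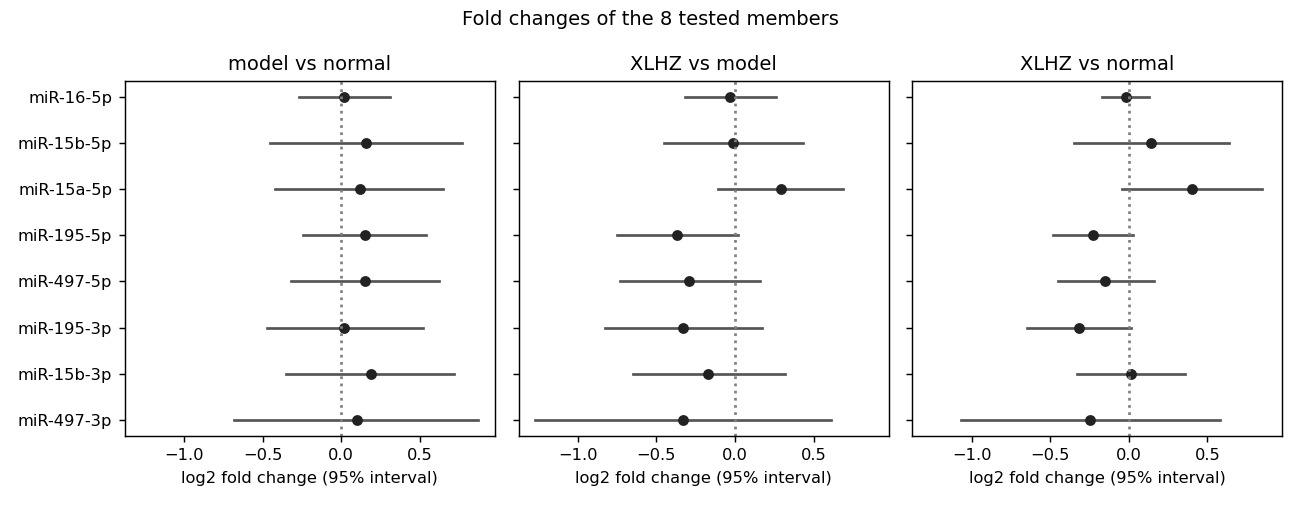
Log2 fold change (points) and 95% interval (lines) of the 8 tested members in the 3 comparisons, from edgeR with TMM factors and 4 libraries per group. Each interval includes 0, and those of miR-16-5p are the narrowest, from -0.17 to 0.13 in the XLHZ against normal comparison.

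The X-linked relatives did not pass either. miR-322-5p, the rat counterpart of human miR-424, carries the full family seed, and with 983 ± 87.2, 1166 ± 362 and 1287 ± 319 CPM in normal, model and XLHZ libraries it was close in level to miR-15b-5p. Its values were 970, 951, 1107 and 904 CPM in normal, 1170, 837, 988 and 1669 CPM in model and 1616, 1127, 1483 and 923 CPM in XLHZ libraries, so the groups overlapped. In the XLHZ against normal comparison the difference was 0.35 on the log2 scale (SE 0.16, unadjusted p = 0.0499, adjusted p = 0.552, edgeR). miR-503-5p had 45.8 ± 6.08, 49.4 ± 11.2 and 47.3 ± 11.2 CPM. The 4 model libraries of miR-503-3p (11.1 to 11.5 CPM) lay above the 4 normal ones (7.01 to 10.9 CPM), as 1.74% of all miRNAs did, with a log2 fold change of 0.26 (adjusted p = 0.685, edgeR). With miR-322-5p, the 5 guides with a printed family seed took 3.96 ± 0.406%, 3.72 ± 0.582% and 4.06 ± 0.328% of all counts.

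Other miRNAs linked to proliferation are given as lists for comparison, each with its count past the test in the order model against normal, XLHZ against model, XLHZ against normal. Of the 8 let-7 guides, which repress growth genes, 0, 0 and 0 passed in edgeR, and the medians were -0.076, -0.018 and -0.14. The miR-26 list, whose guides also target cell cycle genes, had 0, 0 and 0 of 4 past the test and medians of -0.0055, -0.11 and -0.10. In the proliferation-promoting miR-17-92 cluster and its paralogs 1 of 18, 0 of 19 and 1 of 18 rose, with medians of 0.083, 0.00011 and 0.01. The 1 was miR-20a-3p both times (log2 fold changes of 6.38 and 5.2). The other arm of its hairpin, miR-20a-5p, had 0.075 and -0.034 in the same comparisons and did not pass. In the p53-linked miR-34 and miR-449 list 0 of 6, 0 of 5 and 2 of 6 passed, the 2 as lower, with medians of -0.28, -0.62 and -0.29. The 2 were miR-34b-3p (-4.61) and miR-34c-3p (-2.22), named, like miR-20a-3p, after their values were seen. In XLHZ against normal, miR-34c-5p, the other arm of the miR-34c hairpin, had -0.056 and did not pass.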

How the data were processed

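Small RNA libraries from gastric mucosa RNA with integrity numbers above 7.0 were made with a QIAseq miRNA kit for Illumina sequencing, per the labels' protocols. The submitters' processing notes name Bowtie and DESeq with no version. The sources used here do not give the genome build, the counting rule or whether reads or molecules were counted. The authors deposited 2 tables of raw counts per mature miRNA with CPM columns, per the file headers. The deposited CPM equal each count over its column total (largest difference 5.0e-05) and were used for that check only.

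The tables (639 and 632 miRNAs) were joined on 622 shared names, with names in 1 table alone set to 0 in the other. One miRNA outside the family, whose model counts differed between the tables, was left out. Groups and replicate numbers come from sample titles, and columns were matched by labelled descriptions. Libraries of a group always differed by more than sampling noise (the lowest chi-square per degree of freedom was 192.1).

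Each comparison was fitted on its 8 libraries with edgeR 4.0.16 (glmQLFit, glmQLFTest, TMM, filterByExpr at a minimum count of 10; R 4.3.3), with Benjamini-Hochberg adjustment over all miRNAs tested at 0.05. Standard errors are the log2 fold change over the square root of F, and 95% intervals use the test's t quantile. Likeness used log2(CPM + 0.5). The fit was tested on simulated counts, drawn with the same spread for all miRNAs, which leaves out the uneven spread of these libraries. Alternatives were RLE, upper-quartile and library-total scaling, DESeq2 1.42.0, no count filter, a filter of at least 50 counts in 4 libraries, a replicate block, 1 fit of all 12 libraries, each library left out, and model libraries 2 and 3 left out. The members, lists, tests and alternatives were chosen with earlier results of these data known. Named were every member, the seed relatives, and the 3 closest miRNAs to each of the 3 most abundant members. Marker and proliferation miRNAs were also named from their lists. Of these, miR-20a-3p, miR-34b-3p, miR-34c-3p and the other arms given beside them were named after their values were seen.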

Additional observations from a re-analysis of the deposited data

Results flagged for a closer look

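Of 54 sets of 4 values (levels of members and ratios within libraries), 1 had a library far from the other 3 by Dixon's test, where chance gives about 1 in 20. The ratio of miR-497-5p to miR-497-3p was 179 in model library 4 against 365 to 396 in the other model libraries. That library held 110 counts of miR-497-3p against 36 to 65 in the others of its group.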

How the results depend on the processing

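The count of members past the test was 0 in all 3 comparisons under each alternative and with each library left out. For single members, none of which passed in any setting, signs turned as follows. Model against normal, library totals gave -0.0046 for miR-15a-5p, -0.11 for miR-16-5p, -0.13 for miR-195-3p and -0.0011 for miR-195-5p. The replicate number as a block gave -0.0072 for miR-195-3p. Without model libraries 2 and 3 the values were -0.04 for miR-16-5p, -0.21 for miR-195-3p, -0.074 for miR-195-5p and -0.075 for miR-497-5p. XLHZ against model, library totals gave 0.15 for miR-15b-5p and miR-16-5p, no count filter gave 0.038 and 0.024, at least 50 counts in 4 libraries gave 0.0021 for miR-15b-5p, the replicate block gave 0.019 for miR-15b-5p, and leaving out model libraries 2 and 3 gave 0.031 for miR-16-5p. XLHZ against normal, miR-16-5p was 0.06 with upper-quartile factors, 0.036 on library totals and 0.013 in 1 fit of all 12 libraries, and miR-15b-3p was -0.0013 with no count filter. With 1 library left out, the ranges that crossed 0 were -0.12 to 0.13 for miR-195-3p, -0.19 to 0.36 for miR-497-3p and -0.059 to 0.10 for miR-16-5p (model against normal), -0.16 to 0.069 for miR-15b-5p and -0.087 to 0.067 for miR-16-5p (XLHZ against model), and -0.086 to 0.15 for miR-15b-3p, -0.027 to 0.38 for miR-15b-5p, -0.043 to 0.049 for miR-16-5p and -0.51 to 0.012 for miR-497-3p (XLHZ against normal). The cause was not tested.

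Over all miRNAs, the count past the test in model against normal was 1 in edgeR, 7 in DESeq2, 4 in 1 fit of all 12 libraries and without model library 4, 3 with no count filter, and 2 with at least 50 counts, library totals or upper-quartile factors. In XLHZ against model it was 1, and 0 without any 1 of the model libraries or of XLHZ libraries 1 or 4, or without model libraries 2 and 3. In XLHZ against normal it was 6, and 2 in 1 fit of all 12 libraries. Same-numbered libraries deviated together in part: the correlations were 0.20 to 0.47 for number 2, 0.10 to 0.30 for number 3, -0.34 to 0.06 for number 1 and -0.18 to 0.18 for number 4. In 11 of 24 cases a library correlated best with its own number. The numbers were not taken as pairs because not every pair was above 0.1. The replicate block left the count over all miRNAs at 1 in model against normal and XLHZ against model, and gave 5 in place of 6 in XLHZ against normal. Depth limits miR-16-3p, with at most 10 counts, and miR-497-3p.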
